A study of Mus musculus with 21 samples.

Results

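The transcripts described here are those of the glucocorticoid receptor and 6 genes that it is known to induce, 7 genes of the 53801 in the deposited count table, chosen by name. They are Nr3c1, which encodes the receptor, and its targets Tsc22d3, Fkbp5, Sgk1, Klf9, Zbtb16 and Errfi1. The choice was made with earlier results of these data known. All 7 passed the filter on low counts, as did 20256 genes of the table. RNA was sequenced from small intestinal IgA+ plasma cells (IgA+ PCs), sorted as CD138+ IgA+ cells from the lamina propria of C57BL/6 mice, with 1 library for each of 21 mice.

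The control mice were Mb1Cre-/- x Arntl fl/fl animals, whose floxed Arntl alleles stay intact. The knockout mice were littermates that also carried Mb1 Cre, which removes Arntl, the gene for the core clock protein BMAL1, in cells of the B lineage from early in their development. Both genotypes therefore carried the floxed alleles, and the other cells of the knockout mice kept their clock. Mice were taken at zeitgeber time (ZT) 0, when lights came on, or at ZT12, when they went off, which gave 6 control mice at ZT0, 6 control mice at ZT12, 4 knockout mice at ZT0 and 5 knockout mice at ZT12. In 8 of 9 cases a knockout sample's genotype label reads as the control, so the groups follow the titles. Age is not given in the sources used here.

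Corticosterone, the glucocorticoid of the mouse, is released by the adrenal gland in a daily rhythm that rises towards the dark phase, when mice feed. It binds the receptor in the cytoplasm, where HSP90 and co-chaperones hold the receptor ready, and the bound receptor moves to the nucleus and binds glucocorticoid response elements (GREs), pairs of 6-base half-sites in opposite directions. Among the most direct products of this binding is FKBP51, the protein of Fkbp5, which in turn lowers the receptor's affinity for its hormone. Glucocorticoids also set the time of peripheral clocks, whose own factors, BMAL1 among them, bind the E-box, so that target genes can be reached by both routes.

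Before the results by gene, some facts of the libraries bear on all of them. Totals ran from 14471018 to 22785835 counts per library, and immunoglobulin genes took 51.5% to 63.6% of them. Arntl transcript averaged 7.80 ± 0.527 CPM (counts scaled by library size; SD, n = 6) in controls at ZT0 and 4.87 ± 1.08 (SD, n = 4) in knockouts, against 4.54 ± 0.547 (SD, n = 6) and 3.89 ± 0.703 (SD, n = 5) at ZT12. Cd79a, the gene whose locus (Mb1) carries the Cre, had 386 to 586 CPM in the 12 control libraries and 163 to 276 CPM in the 9 titled as knockouts, with no overlap. Other measures set libraries apart. In the controls at ZT12 the replicates 2 and 4, and in the knockouts at ZT0 replicate 3, had low levels of long genes relative to short ones (-0.754, -0.426 and -0.415 on a log2 scale, where the other 18 libraries ran from -0.231 to 0.273). The columns of the table repeat the order of the groups in 3 stretches of 7 libraries, a feature of the header that the labels do not explain, and each stretch holds mice of all 4 groups. Xist, a transcript made in female cells, was at 8.363 to 8.905 log2 CPM in every library of the first stretch. In the other stretches only knockout ZT0 replicate 3, control ZT12 replicate 5 and knockout ZT12 replicate 5 reached such levels (8.741, 8.599 and 8.429). The rest ran from -0.7085 to 1.859. Both sexes were therefore present, and the stretches differed in sex. The part of sex in differences between stretches was not tested. Epithelial markers summed to between 55.0 and 953 CPM and were highest in replicate 5 of the controls at ZT12 and replicate 5 of the knockouts at ZT12. The sum includes Epcam, which averaged 67.2 CPM over the libraries, near the median sum of 70.4 CPM in controls at ZT0. The low sums therefore cannot be read as RNA of epithelial cells in every library. The plasma cell markers, Igha and Jchain among them, summed to at least 282000 CPM in every library.

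Promoters of 5 of the 7 genes were found in the RefSeq table used here (build GRCm38.p6, from 250 bases before each transcription start to 50 after it), 13 sequences in all, and they were searched on both strands for the full GRE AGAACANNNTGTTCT, for its half-site AGAACA and for the E-box CACGTG. The 3 promoters below are shown because they hold the only full GRE, the only E-box of a gene whose level differed by time of day, and the only match of the most abundant target. Capitals mark the matches, and each sequence is on the strand of its gene, written 5′ to 3′.

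Sgk1: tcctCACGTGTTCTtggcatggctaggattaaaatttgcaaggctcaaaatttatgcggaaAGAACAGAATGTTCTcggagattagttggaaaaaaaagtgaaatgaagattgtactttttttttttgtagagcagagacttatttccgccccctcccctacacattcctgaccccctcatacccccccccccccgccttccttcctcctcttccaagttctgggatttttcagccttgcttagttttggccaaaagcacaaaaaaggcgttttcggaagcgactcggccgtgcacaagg

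Fkbp5: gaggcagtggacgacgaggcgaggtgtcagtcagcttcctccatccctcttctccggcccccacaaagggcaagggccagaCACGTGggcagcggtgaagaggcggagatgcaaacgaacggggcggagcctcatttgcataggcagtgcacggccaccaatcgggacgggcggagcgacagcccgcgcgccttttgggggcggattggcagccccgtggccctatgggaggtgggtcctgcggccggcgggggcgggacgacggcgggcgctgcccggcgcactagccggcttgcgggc

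Tsc22d3: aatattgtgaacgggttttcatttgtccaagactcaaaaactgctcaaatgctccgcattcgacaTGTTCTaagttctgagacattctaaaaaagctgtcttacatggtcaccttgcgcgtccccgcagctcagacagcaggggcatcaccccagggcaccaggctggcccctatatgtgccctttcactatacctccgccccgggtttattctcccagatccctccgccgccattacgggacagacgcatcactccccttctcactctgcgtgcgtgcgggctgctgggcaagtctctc

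The Sgk1 promoter (chr10:21993640-21993939, plus strand) held the full palindrome 189 bases before the start, and an E-box 246 bases before it that overlapped a further half-site at 242 bases. A full palindrome stood in 3 of the 32851 promoters of the table (0.00913%). The Fkbp5 promoter (chr17:28486100-28486399, minus strand) held an E-box 169 bases before the start, and an E-box stood in 7.15% of all promoters. The Fkbp5 promoter held no half-site. Its window lay inside the annotated bounds of the gene (chr17:28399095-28517524), and sequence outside the window was not searched. In the Tsc22d3 promoter (chrX:140600473-140600772, minus strand) a single half-site lay 185 bases before the start. Half-sites stood in 19.0% of all promoters, and 2 more of the 6 Sgk1 promoters held 1 each. The single Klf9 promoter and both Errfi1 promoters held none of the 3 motifs in these windows.

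The 7 transcripts differed widely in level. Per kilobase of gene length, the mean over the 21 mice was 68.0 CPM for Tsc22d3, 11.1 for Nr3c1, 3.34 for Fkbp5, 3.09 for Sgk1, 1.20 for Errfi1, 0.929 for Klf9 and 0.0786 for Zbtb16. Tsc22d3 stood above Nr3c1 in 21 of 21 mice and Nr3c1 above Fkbp5 in 21 of 21. The next neighbours were not separated, since Fkbp5 exceeded Sgk1 in 11 of 21 mice and Errfi1 exceeded Klf9 in 10 of 21. Zbtb16 lay below Klf9 in every mouse and had 148 counts in all.

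**Figure D1:**
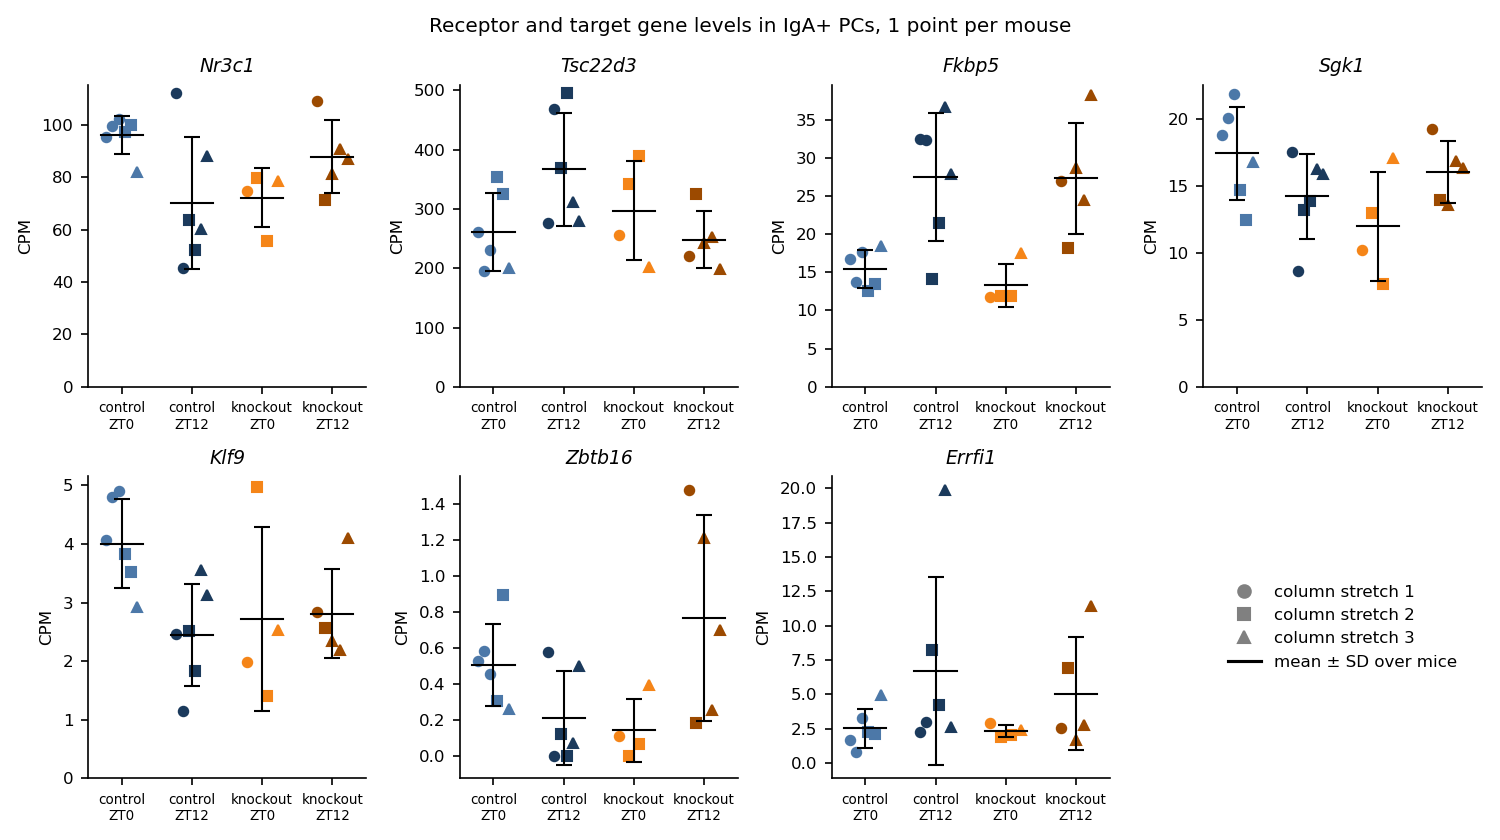
Level of each of the 7 genes in CPM (vertical axes, linear) in the 4 groups of mice, with 1 point per mouse, the marker shape giving the column stretch, and the mean ± SD in black. Fkbp5 was higher at ZT12 in both genotypes, at 27.5 against 15.4 CPM in controls and 27.3 against 13.3 CPM in knockouts.

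Fkbp5, the co-chaperone through which the hormone response feeds back on its receptor, was the member with the clearest time of day difference. It rose at ZT12 in control IgA+ PCs, and its level at ZT12 was about as high in mice that lacked Arntl in their B cells. The 6 controls at ZT0 had 16.8, 13.7, 17.7, 12.5, 13.4 and 18.5 CPM, and those at ZT12 had 32.5, 32.3, 14.1, 21.5, 36.6 and 27.9 CPM. Of the controls at ZT12, all but replicate 3 lay above every control at ZT0. The 4 knockouts at ZT0 had 11.8, 11.9, 11.9 and 17.5 CPM, and the 5 at ZT12 had 26.9, 18.2, 28.6, 24.5 and 38.2 CPM. Every knockout at ZT12 lay above every knockout at ZT0, a separation in this direction that 1.22% of the genes tested showed.

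In controls the difference was 0.83 on the log2 scale (SE 0.20, 95% interval 0.42 to 1.25), or 1.78-fold, with an adjusted p of 0.0414 in edgeR. Fkbp5 was the only one of the 7 genes called in this comparison, in which 1.73% of all genes were called and 0.948% were called higher. In knockouts the difference was 1.04 (SE 0.24, 95% interval 0.54 to 1.53), or 2.05-fold. It had an unadjusted p of 0.000275 and an adjusted p of 0.263 in edgeR, which called 0 genes in this comparison (0% of those tested) while 1622 had an unadjusted p under 0.05. DESeq2 called 47 genes there (0.319% of those it tested), Fkbp5 among them with an adjusted p of 0.0170.

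The change over time in knockouts minus that in controls was 0.20 for Fkbp5 (SE 0.31, 95% interval -0.43 to 0.84, edgeR adjusted p = 0.843), an interval that covers values of either sign. With both genotypes averaged in the same model, a comparison added after the data were seen, Fkbp5 was 1.91-fold higher at ZT12 (0.94 on the log2 scale, SE 0.16, 95% interval 0.61 to 1.26, edgeR adjusted p = 0.00621). This comparison called 0.805% of all genes and 0.341% as higher, and Fkbp5 was again the only one of the 7. Its averaged difference stayed between 0.80 and 1.01 and its call was kept in all 14 other ways of processing and all 21 fits that left out 1 library, with the highest adjusted p at 0.0379.

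The control comparison alone was less steady. Its value ran from 0.60 to 0.97 with no change of direction, but the call was kept in 6 of 15 other settings and 10 of 21 fits without 1 library. It was lost without any one of the control ZT0 replicates 1 to 5, the control ZT12 replicates 2, 4 and 5, or the knockout ZT12 replicates 1, 3 and 4, at adjusted p-values of 0.0510 to 0.114 in edgeR.

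**Figure D2:**
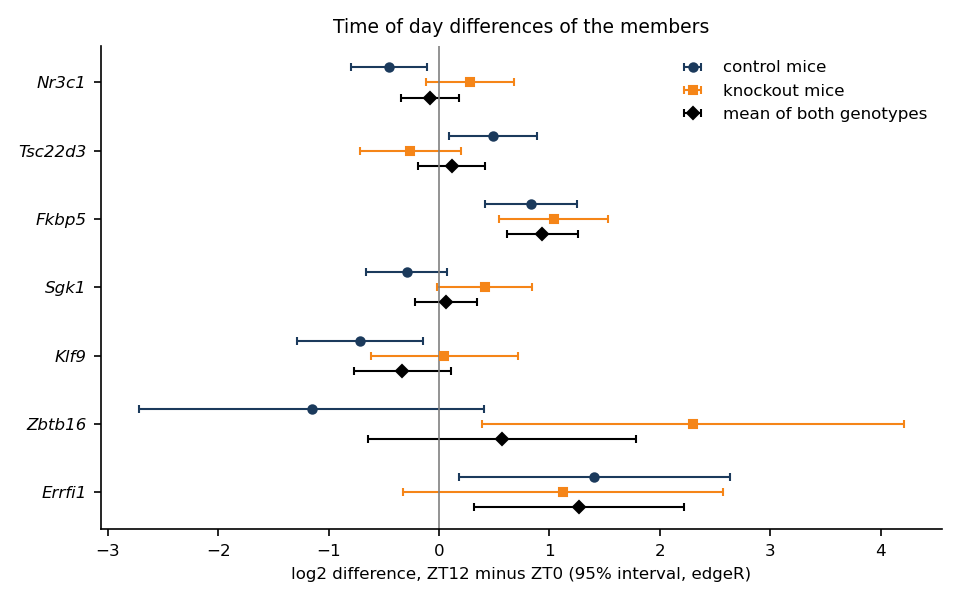
Difference between ZT12 and ZT0 of each gene on the log2 scale (horizontal axis, ZT12 minus ZT0) in control mice, in knockout mice and averaged over both, with bars for 95% intervals from edgeR that are not adjusted for the number of genes. The Fkbp5 intervals lie to the right of 0 in all 3, from 0.42 to 1.25 in controls and from 0.54 to 1.53 in knockouts, while for Nr3c1, Tsc22d3, Sgk1, Klf9 and Zbtb16 the values of the 2 genotypes lie on opposite sides of 0.

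Fkbp5 was also higher at ZT12 in each column stretch taken alone. Control means went from 16.1 at ZT0 to 32.4 CPM in the first stretch, from 12.9 to 17.8 CPM in the second and from 18.5 to 32.2 CPM in the third. Knockout means went from 11.8 to 26.9 CPM, from 11.9 to 18.2 CPM and from 17.5 to 30.4 CPM. In all 6 cases no mouse at ZT0 reached the lowest mouse at ZT12, although a side of such a comparison often held 1 mouse, and 111 genes (0.548% of those tested) showed this in both genotypes. The level itself differed between stretches, with the second 0.352 below its groups' means on the log2 scale and the third 0.255 above, and the mouse that overlapped, control replicate 3 at ZT12, belonged to the second.

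Within the groups, levels of Fkbp5 moved little with the library measures compared here. After the group means were removed, its correlation over the 21 mice was 0.0742 with the level of long minus short genes (Spearman's rho 0.110), 0.176 with the immunoglobulin share (rho 0.0299), 0.151 with the epithelial markers (rho -0.0377) and -0.137 with genes that respond to tissue dissociation (rho -0.144). Without the 2 mice farthest from the median of each measure, these became 0.234, 0.147, -0.186 and -0.0992. The points share their normalization, and the values are descriptions. With group means removed, they cannot cover a measure that shifts with time of day. The epithelial markers had median differences between ZT12 and ZT0 of 2.45 in controls and 2.74 in knockouts. The highest Fkbp5 levels, 36.6 and 38.2 CPM, were in ZT12 replicate 5 of the controls and of the knockouts. Epithelial markers were highest in the same libraries. With their level as a term, the control difference of Fkbp5 was 0.76. The part of these markers in the Fkbp5 values was not tested. Myeloid markers were not among the measures compared. Of 11 such genes tested, 9 were higher and 2 lower at ZT12 in controls, and 11 were higher in knockouts, with 0 called in either. Their relation to Fkbp5 was not tested. The genes most like Fkbp5 over the 21 mice, of 8176 compared, were Enpp1 (r = 0.853), Samhd1 (r = 0.795) and Ctsa (r = 0.790). With the group means removed, these fell to 0.711, 0.700 and 0.457. Samhd1 encodes a dNTP hydrolase, Enpp1 a nucleotide pyrophosphatase of the plasma cell surface and Ctsa a lysosomal carboxypeptidase.

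No difference in Fkbp5 between the genotypes was detected. Knockouts differed from controls by -0.21 on the log2 scale at ZT0 (SE 0.23, 95% interval -0.69 to 0.26) and by -0.01 at ZT12 (SE 0.21, 95% interval -0.44 to 0.42). The edgeR adjusted p-values were 0.933 and 0.992.

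**Figure D3:**
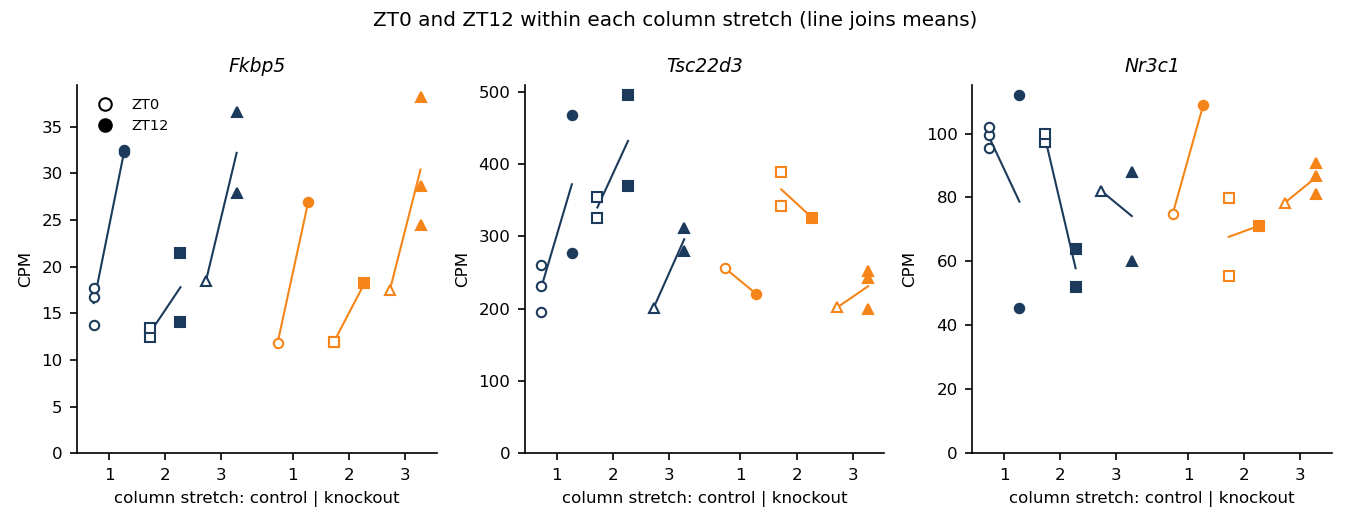
Level in CPM (vertical axes from 0) of Fkbp5, Tsc22d3 and Nr3c1 at ZT0 (open) and ZT12 (filled) within each of the 3 column stretches, controls in blue and knockouts in orange, with 1 point per mouse and lines that join the means. All 6 Fkbp5 lines rise, the 3 Tsc22d3 lines of the controls rise, and the Nr3c1 lines fall in the controls and rise in the knockouts.

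Tsc22d3 encodes GILZ, a leucine zipper protein through which glucocorticoids restrain NF-κB and AP-1. Controls at ZT0 had 195 to 354 CPM with a median of 246, and controls at ZT12 had 277 to 495 CPM with a median of 340. The ranges overlapped, but in each column stretch every control at ZT12 lay above every control at ZT0, as 2.16% of all genes did. Means over the 3 stretches went from 229 to 372, from 340 to 432 and from 201 to 296 CPM. The knockouts at ZT0 had 256, 342, 389 and 202 CPM, and those at ZT12 had 221, 326, 243, 252 and 199 CPM. These knockout values overlapped, with means of 297 ± 83.9 CPM at ZT0 (SD, n = 4) and 248 ± 48.1 CPM at ZT12 (SD, n = 5). Within the stretches the knockout means went from 256 to 221, from 365 to 326 and from 202 to 231 CPM, so the third ran against the other two.

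The Tsc22d3 difference in controls was 0.49 (SE 0.19, edgeR adjusted p = 0.186), that in knockouts was -0.26 (SE 0.22, edgeR adjusted p = 0.788), and neither passed the threshold. The change over time in knockouts minus that in controls was -0.75 (SE 0.29, 95% interval -1.35 to -0.14, unadjusted p = 0.0175, adjusted p = 0.442 in edgeR). At ZT12 the knockouts differed from the controls by -0.56 (SE 0.20, adjusted p = 0.562 in edgeR). With the column stretch as a term, which was chosen after the data were seen, the control difference was 0.54 with an adjusted p of 0.0179 in edgeR, and it was the only one of 15 other settings that called it. The same term took the knockout difference to -0.03. The second stretch held the higher Tsc22d3 levels (0.350 above its groups' means on the log2 scale, against -0.112 and -0.238 in the others).

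Genes of the response to tissue dissociation, such as Fos and Jun, moved with Tsc22d3. After the group means were removed, r was 0.632 with their mean level (rho 0.677, and 0.565 without the 2 farthest mice) and -0.680 with the level of long minus short genes (rho -0.722, and -0.616). The 14 dissociation genes summed to 2800 to 6900 CPM in controls at ZT0 and 2860 to 8780 at ZT12, and to 3160 to 9170 and 2730 to 4970 in knockouts. Their median difference over time was 0.72 in controls and -0.45 in knockouts, with 0 of 14 called in either. With the level of long minus short genes as a term, the control difference of Tsc22d3 was 0.13 and its interaction was -0.29. The part of these measures in the Tsc22d3 values was not tested further. The genes most like it were Ctsl (r = 0.916), Ppp1r15a (r = 0.913) and Selenok (r = 0.909), which with the group means removed gave 0.900, 0.896 and 0.929. Ppp1r15a encodes GADD34 of the integrated stress response, Selenok an endoplasmic reticulum selenoprotein and Ctsl a lysosomal protease.

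Nr3c1, the receptor itself, was a well expressed gene at 82.2 CPM on average. The 6 controls at ZT0 lay close together, from 82.1 to 102 CPM with a median of 98.4. The controls at ZT12 spread from 45.3 to 112 CPM with a median of 62.0. Replicate 1 lay above every mouse at ZT0 and replicate 6 within their range, while the other 4 lay below them. The knockouts at ZT0 had 74.8, 79.8, 55.6 and 78.4 CPM and those at ZT12 had 109, 71.2, 81.1, 90.8 and 86.8 CPM, with overlap. All 4 knockouts at ZT0 were below all 6 controls at ZT0, a separation in this direction that 0.474% of the genes tested showed.

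In controls the Nr3c1 difference was -0.45 on the log2 scale (SE 0.17, 95% interval -0.79 to -0.11, edgeR adjusted p = 0.161), and in knockouts it was 0.28 (SE 0.19, edgeR adjusted p = 0.721). The change over time in knockouts minus that in controls was 0.73 (SE 0.25, 95% interval 0.21 to 1.26, unadjusted p = 0.00857, adjusted p = 0.442 in edgeR). At ZT0 the knockouts differed from the controls by -0.41 (SE 0.19) with an adjusted p of 0.926, and at ZT12 by 0.32 (SE 0.17) with an adjusted p of 0.590, both in edgeR. None of these passed the threshold.

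The spread of Nr3c1 in controls at ZT12 followed the level of long minus short genes. With the group means removed, r was 0.874 over the 21 mice (rho 0.757, and 0.836 without the 2 farthest), and the lowest values, 45.3, 52.1 and 55.6 CPM, were those of the 3 libraries that stood apart. Nr3c1 is itself a long gene, at 7425 bases. With the level of long minus short genes as a term its interaction was 0.33, and with the immunoglobulin share as a term its control difference was -0.08. Without control ZT12 replicate 1 the control difference was -0.63 and was called (edgeR adjusted p = 0.00958). The genes most like Nr3c1 were Myh9 (r = 0.950), Lrrc8c (r = 0.949) and Dmxl1 (r = 0.942). Myh9 encodes a heavy chain of non-muscle myosin.

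**Figure D4:**
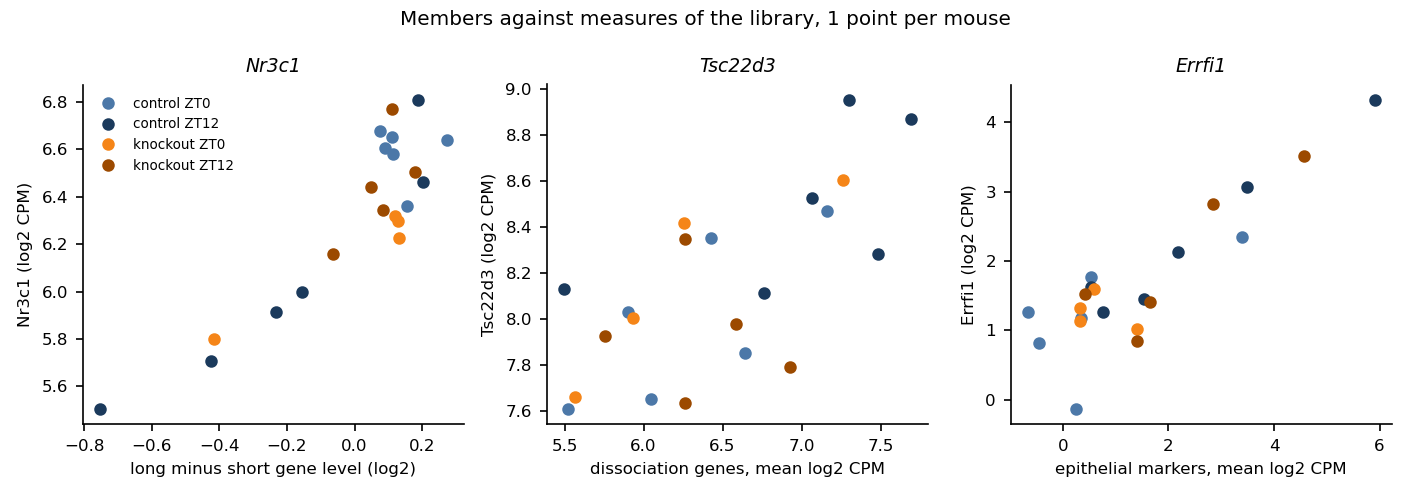
Level of 3 genes on the log2 CPM scale (vertical axes) against a measure of the library (horizontal axes): Nr3c1 against the level of long minus short genes, Tsc22d3 against the mean of dissociation genes and Errfi1 against the mean of epithelial markers, with 1 point per mouse coloured by group. With group means removed, r was 0.874, 0.632 and 0.845 over the 21 mice.

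Sgk1 encodes a kinase that regulates ion channels and transporters and carries the full GRE shown above in one promoter. Controls had 12.5 to 21.9 CPM at ZT0 (median 17.8) and 8.63 to 17.6 CPM at ZT12 (median 14.9). Knockouts had 10.2, 13.0, 7.67 and 17.1 CPM at ZT0, against 19.3, 14.0, 13.6, 16.9 and 16.4 CPM at ZT12. The groups overlapped in both genotypes, with the lower mean at ZT12 in controls and at ZT0 in knockouts. The differences were -0.29 (SE 0.18, edgeR adjusted p = 0.398) in controls and 0.42 (SE 0.21, edgeR adjusted p = 0.624) in knockouts. The change over time in knockouts minus that in controls was 0.71 (SE 0.27, 95% interval 0.14 to 1.27, edgeR adjusted p = 0.442), and at ZT0 knockouts differed from controls by -0.54 (SE 0.20, edgeR adjusted p = 0.926). The control value turned to 0.04 with the immunoglobulin share as a term and to 0.02 with the level of long minus short genes. The latter term took the interaction to 0.35. With group means removed, Sgk1 had an r of 0.689 with that level (rho 0.517, and 0.397 without the 2 farthest mice). The genes most like Sgk1 were Lrig1 (r = 0.880), Ankrd44 (r = 0.861) and Abr (r = 0.848). Lrig1 encodes a negative regulator of receptors of the EGF family.

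Klf9 encodes a Krüppel-like transcription factor that takes part in the daily output of glucocorticoids and the clock. It was low, at 19 to 91 counts per library. Controls had 2.92 to 4.91 CPM at ZT0 (median 3.95) and 1.15 to 3.56 CPM at ZT12 (median 2.49). Of the controls at ZT12, 4 lay below all those at ZT0 and the other two overlapped them. Knockouts had 1.98, 4.97, 1.40 and 2.53 CPM at ZT0, against 2.84, 2.56, 2.35, 2.19 and 4.10 CPM at ZT12, with full overlap. The difference was -0.71 in controls (SE 0.28, edgeR adjusted p = 0.180) and 0.05 in knockouts (SE 0.32, edgeR adjusted p = 0.989). The change over time in knockouts minus that in controls was 0.76 (SE 0.43, 95% interval -0.12 to 1.64, edgeR adjusted p = 0.502). With the immunoglobulin share as a term the control difference was -0.26, and the interaction was 0.29 without the 3 libraries that stood apart and 1.20 without knockout ZT0 replicate 2. The genes most like Klf9 were Itpripl2 (r = 0.859), Coro2a (r = 0.856) and Zfp27 (r = 0.844).

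Zbtb16 encodes PLZF, a zinc finger repressor that glucocorticoids induce strongly in many tissues. It was close to the limit of detection here, with 0 to 24 counts per library and 3 libraries at 0. Controls at ZT0 had 5 to 15 counts each and controls at ZT12 had 13, 0, 2, 0, 1 and 8. Knockouts had 2, 0, 1 and 8 counts at ZT0 and 24, 3, 18, 4 and 12 at ZT12. The groups overlapped. The difference was -1.15 in controls (SE 0.76, edgeR adjusted p = 0.437) and 2.30 in knockouts (SE 0.93, edgeR adjusted p = 0.608), and the latter minus the former was 3.45 (SE 1.20, 95% interval 0.99 to 5.91, edgeR adjusted p = 0.442). At this depth a few counts carry these values, and with the immunoglobulin share as a term the control difference was -0.06.

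Errfi1 encodes MIG6, an inhibitor of the EGF receptor. Controls had 0.794 to 4.95 CPM at ZT0 (median 2.22) and 2.28 to 19.9 CPM at ZT12 (median 3.61). Knockouts had 2.91, 1.91, 2.07 and 2.39 CPM at ZT0, against 2.53, 6.94, 1.68, 2.77 and 11.4 CPM at ZT12. The higher means at ZT12 rested on control replicates 3 (8.24 CPM) and 5 (19.9 CPM) and knockout replicates 2 and 5, since all other mice had 4.95 CPM or less. The differences were 1.40 in controls (SE 0.58, edgeR adjusted p = 0.214) and 1.12 in knockouts (SE 0.69, edgeR adjusted p = 0.688). Averaged over both genotypes it was 1.26 (SE 0.45, edgeR adjusted p = 0.195).

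Epithelial markers moved with Errfi1. After the group means were removed, r with their mean level was 0.845 over the 21 mice (rho 0.755, and 0.746 without the 2 farthest), and the highest Errfi1 levels, 19.9 and 11.4 CPM, were in the libraries with the highest epithelial markers. The 12 markers, Epcam included, summed to 55.0 to 202 CPM in controls at ZT0 and 73.4 to 953 at ZT12, and to 73.2 to 86.2 and 67.0 to 496 in knockouts. Of the 11 tested, 11 had a positive difference between ZT12 and ZT0 in each genotype, with 0 called, and of the goblet cell marker Muc2 only 9 counts were seen in all. With the epithelial level as a term, the Errfi1 difference was 0.11 in controls and 0.02 in knockouts. In such bulk libraries, more cells of a type and more RNA per cell cannot be told apart. Its nearest genes were St3gal4 (r = 0.917), Gsdmc2 (r = 0.901) and Lgals4 (r = 0.890), the last of which is one of those 12 markers.

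Seen together, the 7 genes did not share one direction. Because they were chosen with earlier results of these data known, their counts beside the shares over all genes are descriptions, not tests. In controls 3 of the 7 were higher at ZT12 and 4 lower, with a median difference of -0.29 on the log2 scale beside 0.01 over all genes tested. In knockouts 6 of the 7 were higher and 1 lower, with a median of 0.42 beside 0.01. Unadjusted p-values were under 0.05 for 5 of the 7 in controls, for 2 in knockouts and for 4 in the comparison of the time differences, where the share over all genes was 18.1%, 8.01% and 10.8%. The last 4, Nr3c1, Tsc22d3, Sgk1 and Zbtb16, were not independent. With group means removed, Nr3c1 had r of 0.731 with Zbtb16, 0.643 with Sgk1 and -0.568 with Tsc22d3. Their r with the level of long minus short genes was 0.874, -0.680, 0.689 and 0.602 in that order. The part of this measure in the counts was not tested. For the change over time in knockouts minus that in controls, 0 of the 7 were called in edgeR, as were 0 of all genes (0%), and the edgeR adjusted p was lowest at 0.442. For genotype, 0 of the 7 were called at either time, beside 0.00987% of all genes at ZT0 and 0.0148% at ZT12, and with unadjusted p-values under 0.05 there were 2 of the 7 at each (4.90% and 8.83% of all genes).

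The machinery around the receptor was read from a list of 26 genes of the receptor, its chaperones, coregulators and the enzymes that supply its ligand, which includes Nr3c1 and Fkbp5. This list and those that follow were also chosen with earlier results of these data known, and their counts are descriptions. In controls 1 of the 26 was called higher, Fkbp5, and 0 lower. Unadjusted p-values under 0.05 were seen for 2 higher and 7 lower genes of the 26, where 9.19% of all genes were higher and 8.86% lower by that rule, and the median difference was 0.05. In knockouts 0 were called, with 3 higher and 0 lower at an unadjusted p under 0.05 (3.91% and 4.09% of all genes) and a median of 0.21. Averaged over both genotypes, Fkbp5 was the only gene of the 26 that was called.

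A list of 40 other genes that glucocorticoids induce, 36 of which could be tested, gave 0 called genes in controls, with unadjusted p-values under 0.05 for 12 higher and 3 lower (9.19% and 8.86% of all genes) and a median of 0.16. In knockouts it also gave 0, with 1 higher and 3 lower (3.91% and 4.09% of all genes) and a median of 0.06. The dissociation genes had a positive difference for 13 of 14 in controls and for 5 of 14 in knockouts, and their part in these counts was not tested. The 3 with the smallest p in controls were Zfp36, Cdkn1a and Cxcr4. Zfp36, whose product binds and destabilises messages of inflammation, averaged 295 ± 23.5 CPM at ZT0 and 385 ± 64.5 CPM at ZT12 (SD, n = 6 each) and 338 ± 75.7 and 307 ± 30.8 CPM in knockouts (SD, n = 4 and 5). Its difference was 0.38 in controls (SE 0.12, edgeR adjusted p = 0.0937) and -0.14 in knockouts. Cdkn1a, the cell cycle inhibitor p21, differed by 0.61 in controls (SE 0.20, edgeR adjusted p = 0.110) and by 0.04 in knockouts. Cxcr4, the chemokine receptor that retains plasma cells in their niches, differed by 1.36 in controls (SE 0.42, edgeR adjusted p = 0.114) and by -0.10 in knockouts.

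Of 12 inflammatory genes that glucocorticoids repress, 0 were called in either genotype, with a median of 0.34 in controls and 0.47 in knockouts, and in controls 0 had an unadjusted p under 0.05. In knockouts 1 was higher and 3 were lower by that rule (3.91% and 4.09% of all genes). Nos2, the higher gene, and Csf2, among the lower, had 113 and 12 counts in all, with 11 and 14 libraries at 0. Il6, Tnf, Ccl2, Il12b, Nos2, Csf2 and Ifng averaged from 0.0308 to 0.495 CPM. The medians therefore rest in part on transcripts near the limit of detection. The 3 with the smallest p in controls were Icam1, Ptgs2 and Il12b. Icam1, an adhesion molecule, averaged 22.8 ± 7.11 CPM at ZT0 and 18.9 ± 2.28 CPM at ZT12 in controls (SD, n = 6 each) and 33.0 ± 7.36 and 17.8 ± 5.23 CPM in knockouts (SD, n = 4 and 5). Its differences were -0.27 (SE 0.19) and -0.89 (SE 0.22), with edgeR adjusted p-values of 0.481 and 0.289. Ptgs2, which encodes the cyclooxygenase COX-2, differed by 0.68 in controls (SE 0.49, edgeR adjusted p = 0.487), and Il12b was near the limit of detection at 0.0714 CPM on average. In the remaining comparisons, 0 genes of the last 2 lists were called.

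**Figure D5:**
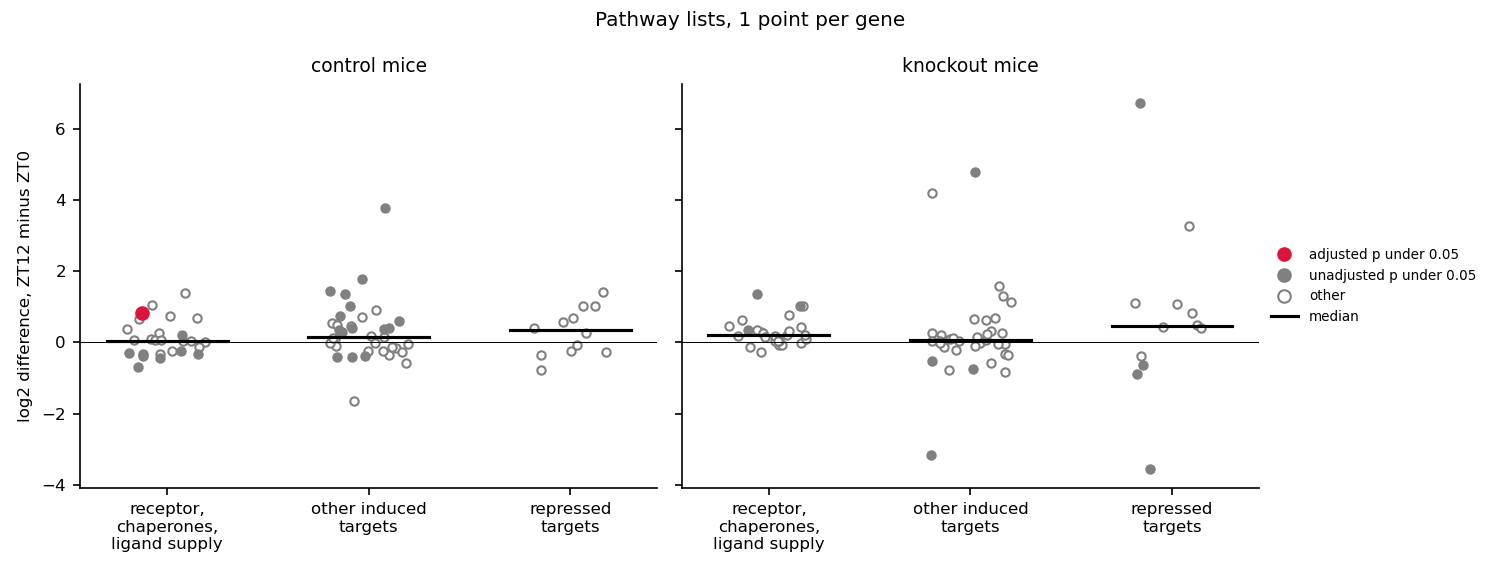
Difference between ZT12 and ZT0 on the log2 scale (vertical axis, ZT12 minus ZT0) of each gene of 3 lists, in control mice on the left and knockout mice on the right, with 1 point per gene. Red marks an adjusted p under 0.05, filled grey an unadjusted p under 0.05, open grey the rest, and black lines the medians. The single red point is Fkbp5, at 0.83 in controls.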

How the data were processed

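The authors deposited a table of raw counts of reads per gene for 21 poly-A libraries (NEB Next Ultra, paired 150-base reads), with no normalization; per the labels, DESeq2 was used in the study. The aligner, the counter, the annotation and the use of strand are not given in the sources used here. Gene coordinates in the table fit GRCm38, since 52105 of 53706 genes found in GENCODE M21, and 4 of the 7 genes described, had identical bounds. The 3 features that overlap a described gene had at most 4 counts in all.

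Rows whose counts summed to fewer than 10 were dropped. After TMM scaling, the 4 group means were modelled over all 21 mice with edgeR 4.0.16 (R 4.3.3, robust quasi-likelihood). Levels are CPM of TMM-scaled libraries, log2 CPM uses a prior count of 2, and adjusted p-values are Benjamini-Hochberg values over 20256 genes, with a threshold of 0.05. Intervals are at 95% for single genes. DESeq2 1.42.0, other scalings, filters, covariates, a replicate block and fits without 1 library were the alternatives. The average over genotypes, the column stretch, the level of long minus short genes and the fits without 3 libraries were added after the data were seen. The level of long minus short genes is the median log2 deviation of genes of 5000 bases or more minus that of genes under 2000 bases, over non-immunoglobulin genes with a mean log2 CPM above 3.

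All 7 genes were described by rule. From each list the genes called in any comparison are named, or else the 3 with the smallest p in controls, and the genes most alike are the 3 with the highest Pearson r of log2 CPM among non-immunoglobulin genes with a mean of at least 5 CPM. Repressed genes near the limit of detection are named as well. The members and lists were chosen with earlier results of these data known. The study describes the samples as individual animals. No pair of libraries within a group agreed within sampling noise. Promoters are from RefSeq (GRCm38.p6).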

Additional observations from a re-analysis of the deposited data

Results flagged for a closer look

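Values of 3 libraries stood apart from their groups by Dixon's test at 95%, among 28 sets of 1 gene in 1 group, a test that chance meets in about 1 of 20 groups. Nr3c1 in control ZT0 replicate 6 was 82.1 CPM, below the next lowest control at 95.5 CPM, and it was the only control at ZT0 in the third column stretch. Fkbp5 in knockout ZT0 replicate 4 was 17.5 CPM, where the other 3 knockouts at ZT0 had 11.8 to 11.9 CPM, and this mouse was likewise the only one of its group in the third stretch. Errfi1 in control ZT12 replicate 5 was 19.9 CPM against 8.24 CPM in the next highest control, in the library with the most epithelial marker RNA. Their causes were not tested.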

How the results depend on the processing

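The averaged Fkbp5 call was kept in every alternative run. In controls, where 1 of the 7 genes was called, 0 were called with library size only, no filter, a threshold of 0.01, own groups only, the replicate block, the 3 libraries left out, or the immunoglobulin share, epithelial, dissociation or long minus short level as a term, 2 with the column stretch, and 0 to 2 without 1 library. DESeq2 called 1 of the 7 in knockouts. Of all genes, 350 were called in controls, against 1052 by DESeq2, 14 at a threshold of 0.01, 38 from own groups only, 183 with the replicate block, 0, 100, 16, 545 and 11 with immunoglobulin share, epithelial, dissociation, column stretch and long minus short terms, 57 without the 3 libraries and 31 to 944 without 1 library. In knockouts, where 0 were called, DESeq2 called 47, no filter 1, the immunoglobulin share 1, dissociation 2, the long minus short term 18, and fits without 1 library 0 to 1. DESeq2 called 4 genes for the change over time between genotypes, where edgeR called 0 and 0 to 1 without 1 library, and 5 and 8 for genotype at ZT0 and ZT12, where edgeR called 2 and 3. The epithelial term gave 5 at ZT12, and fits without 1 library gave 2 to 3 and 2 to 4. Averaged over genotypes, 163 were called, against 664 by DESeq2, 22 at a threshold of 0.01, 68, 329 and 446 with epithelial, column stretch and long minus short terms, and 96 to 291 without 1 library. The cause of these changes was not tested.

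Replicate numbers were not treated as pairs in the main model. The deviations of same-numbered mice correlated between -0.410 and 0.408. Differently numbered mice were not compared, so this range cannot show whether the numbers pair the samples. With the replicate block, Fkbp5 in controls was 0.81 (edgeR adjusted p = 0.0688). Library size alone moved the median of all genes by -0.205 in controls, 0.178 for the change over time between genotypes, 0.128 for genotype at ZT12 and -0.116 averaged over genotypes.

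Differences that turned sign were small and not called. In controls Sgk1 went from -0.29 to 0.0356 with the immunoglobulin share and 0.0156 with the long minus short term. In knockouts Klf9 went from 0.05 to -0.0245 with the replicate block, -0.158 with epithelial markers, -0.000419 with the column stretch, -0.165 without 3 libraries, and -0.0825, -0.165 and -0.138 without knockout ZT0 replicates 1 or 3 or ZT12 replicate 5 (-0.165 to 0.490 without 1 library). The Errfi1 change over time between genotypes went from -0.28 to 0.0464 with dissociation, 0.0520 with the long minus short term and 0.434 without control ZT12 replicate 5 (-0.836 to 0.434 without 1 library). For genotype at ZT0, Errfi1 went from -0.11 to 0.313 with the replicate block and 0.211 without control replicate 6. At ZT12, Fkbp5 went from -0.01 to 0.145 with library size only, 0.0175 with the replicate block, 0.0280 with the Xist level, 0.0460 with the immunoglobulin share, and 0.0375, 0.0351, 0.0865, 0.105 and 0.0255 without control replicates 1, 2 or 5 or knockout replicates 2 or 4 (-0.169 to 0.105 without 1 library). There Sgk1 went from 0.17 to -0.0278 and -0.0742, and Klf9 from 0.20 to -0.0818 and -0.0834, with the immunoglobulin share and long minus short terms, and Klf9 to -0.0600 without 3 libraries. Errfi1 went from -0.40 to 0.00552 with dissociation and 0.319 without control replicate 5 (-0.944 to 0.319 without 1 library). Averaged, Tsc22d3 went from 0.11 to -0.0055 with library size only, -0.0323 with the immunoglobulin share, -0.00127 with dissociation and -0.0184 with the long minus short term, Nr3c1 from -0.08 to 0.0868, 0.0112 and 0.0317 with the immunoglobulin share, epithelial and long minus short terms, and Sgk1 from 0.06 to -0.0528 with library size only and -0.0185 without knockout ZT0 replicate 3.

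The lowest totals over the 21 libraries were those of Zbtb16, Klf9 and Errfi1, with 148, 1062 and 1443 counts.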
